A study of Rattus norvegicus with 2 samples.

Results

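The transcripts described here are 4277 loci of the rat genome that the deposited expression table lists without a gene name and that lie more than 50000 bases from every named locus of the table on the same chromosome. They make up 31.6% of the 13533 unnamed rows and 13.1% of all 32767 rows of the table. Membership rests on position alone and uses no expression value. RNA was sequenced from H9c2 cells, a muscle-forming line derived from embryonic heart of a BD1X rat, after transfection with a beta4 plasmid carrying Cacnb4, a cytoplasmic helper subunit of calcium channels such as Cav1.2, or with an empty vector. There was 1 library per group, so every difference below compares 2 libraries, has no replicate check and was not tested. The stated aim was a survey of the genes that respond to the beta4 subunit, antiviral factors in particular. The labels name neither the time after transfection nor the share of cells that took up the plasmid, and in bulk RNA fewer cells of a type and less RNA per cell cannot be told apart.

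The deposited read counts were 16925364 raw and 14939784 mappable reads in the Cacnb4 library and 15258174 raw and 13569897 mappable reads in the empty vector library. Cacnb4 itself stood at 6266 FPKM in the Cacnb4 library and 4.37 FPKM in the empty vector library, so the transfected gene matched the labels. Of 10 muscle markers 9 reached 1 FPKM in at least 1 library and none differed by 2-fold once 1 FPKM was added to both values. The embryonic myosin gene Myh3 stood at 4.57 FPKM in the Cacnb4 library and 1.86 FPKM in the empty vector library. The muscle differentiation factor Myog stood at 71.9 FPKM in the Cacnb4 library and 51.3 FPKM in the empty vector library. None of the 4 adult cardiomyocyte markers listed (Myh6, Nppa, Myl7, Ryr2) reached 1 FPKM, and neither did any leukocyte, endothelial or neuronal and glial marker found in the table.

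Transcript assembly from short reads joins overlapping reads into transcribed stretches and then looks for a gene annotation at the same place. Stretches with no annotation can be exons or ends of genes that the annotation lacks, long non-coding RNAs, enhancer transcripts, or pieces of unspliced RNA. A single gene with many exons may appear as a row of short pieces when the reads do not bridge them. Many interferon-stimulated genes sit in families of near copies (guanylate-binding proteins, the Samd9 genes, the Ifi200 or PYHIN genes), which older rat annotations cover poorly.

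The loci were short. Their length ran from 21 to 7734 bases with a median of 174 bases, against a median of 18144.5 bases for named rows. The distance to the nearest named row had a median of 107148 bases and reached 2620017 bases. They lay on 22 chromosomes, including 5 on the mitochondrial chromosome, which carries no named row in the table and is therefore taken in by the distance rule. The members closest to the 50000-base limit were 50014 to 50036 bases from a named row, and the unnamed rows just outside it were 49932 to 50000 bases away. The log2 ratios of the 3 nearest inside were -0.16, -1.10 and -0.11, and those of the 3 nearest outside were -0.87, 0.98 and 0.04.

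FPKM, a level in fragments scaled to transcript length and library size, exaggerates very short loci, so the reads behind each value were worked back from the values. With fragment lengths taken as 200 ± 80 bases (mean and SD), 95.4% of the 6863 member values between 1 and 50 reads came out within 0.05 of a whole read. A single read was worth 4420 FPKM at a locus of 21 bases, 4.36 FPKM at 174 bases and 0.0176 FPKM at 5000 bases in the empty vector library. On the nuclear chromosomes a member rested on a median of 21 reads in the Cacnb4 library and 17 reads in the empty vector library. Nearly all members (4270 of 4277) had 10 or more reads in at least 1 library. A locus with fewer than 20 reads in all therefore entered the table only through the library in which it was the higher, and its ratio is not read as a difference. With 20 or more reads in all, at least 1 library holds 10 or more however they are split. Intervals on ratios below are exact 95% intervals on these reads and cover counting error only.

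The highest FPKM values of the set rest on very short loci. The highest of the Cacnb4 library was a 21-base locus at chr2:186438322-186438343 with 632798 FPKM there and 380872 FPKM in the empty vector library. Those values stand for 154 and 86 reads, a ratio of 1.66 (1.27 to 2.19). A 5515-base locus at chr17:66881031-66886546 had far lower values, 609 FPKM in the Cacnb4 library and 410 FPKM in the empty vector library, yet it held 41179 and 25759 reads and its ratio of 1.48 (1.46 to 1.51) is the better measured.

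Every member reached 1 FPKM in at least 1 library. On the scale log2((FPKM Cacnb4 + 1)/(FPKM empty vector + 1)), 672 of 4277 (15.7%, 95% Wilson interval 14.7 to 16.8) were 2-fold or more higher with Cacnb4 and 291 (6.80%) were 2-fold or more lower. Over all 24426 measured rows of the table those shares were 8.45% and 4.93%. That comparison mixes lengths, since 58.3% of the members but 21.2% of all rows are under 200 bases. At like length the shares lay closer: under 200 bases 18.9% of the members and 16.7% of all measured rows were higher. The unnamed rows within 50000 bases of a named row stood at 11.7% and 7.66%. The median log2 ratio was 0.15 over the members (95% interval 0.13 to 0.17), 0.04 over the close unnamed rows and -0.03 over named rows. Both 95% intervals take the rows as independent, though neighbouring rows tended to share a direction. They do not measure spread between transfections. The members as listed leaned toward the Cacnb4 library, by a small step at the median and with a wider upper tail. These values include the 751 members with fewer than 20 reads over both libraries, which supplied 320 of the 672 higher rows. With 20 or more reads the median log2 ratio was 0.11 over the members and 0.02 over the close unnamed rows.

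Much of the count of 2-fold loci came from few reads. Among the 751 members with fewer than 20 reads over both libraries 42.6% were 2-fold higher and 22.9% 2-fold lower. Among the 3526 with 20 or more reads 352 (9.98%) were higher and 119 (3.37%) lower, against 6.0% higher and 3.37% lower of the close unnamed rows of that depth. Among the 1287 with 50 to under 200 reads 7.54% were higher and 0.622% lower, against 3.34% and 0.696% of the close rows. Among the 398 with 200 or more reads 4.02% were higher and 0.503% lower, against 2.65% and 0.305%. The lower shares of distant and close rows were thus near each other at every depth from 20 reads up. The higher share was the one that stood above the close rows. Of the 352 higher members, chromosomes 10, 5 and 20 held 57, 36 and 27, mostly in the blocks described below. The share without these blocks was not computed at this depth, so how far the excess reaches beyond them is not known.

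**Figure D1:**
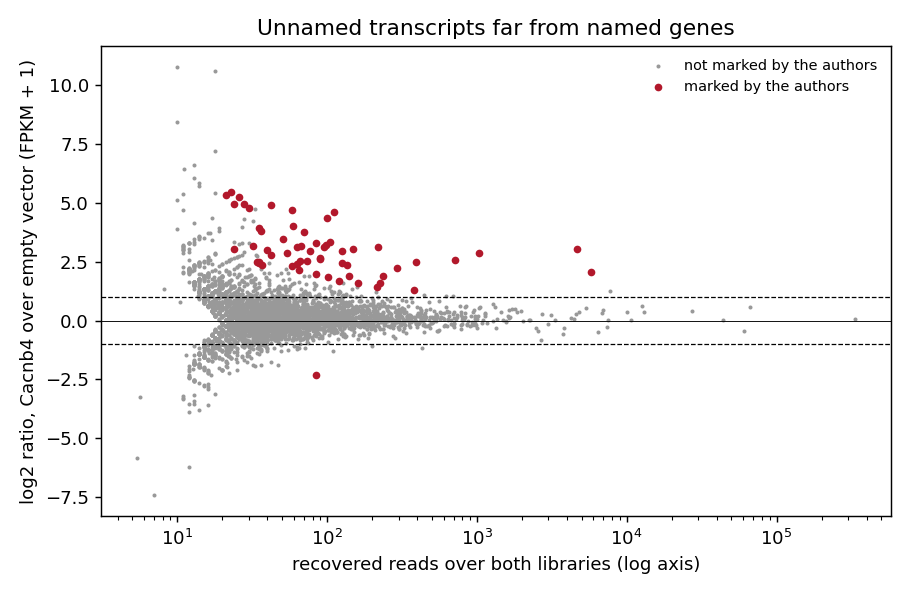
Log2 ratio of each of the 4277 members (Cacnb4 over empty vector, FPKM + 1) against its recovered reads over both libraries on a log axis, with the 59 rows marked significant in the authors' deposited table in red and dashed lines at 2-fold. The cloud narrows toward 0 as reads increase, and 58 of the 59 red points lie above the upper line.

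**Figure D2:**
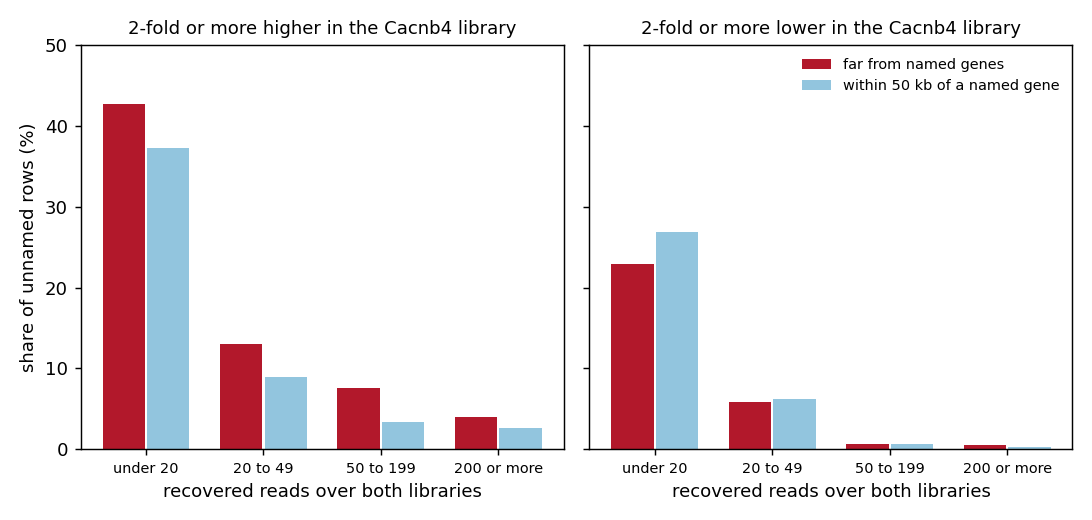
Share of unnamed rows at least 2-fold higher (left panel) and at least 2-fold lower (right panel) in the Cacnb4 library, by recovered reads over both libraries, for loci far from named genes (red) and within 50 kb of one (blue). At 50 to under 200 reads the higher share is 7.54% far and 3.34% close, and the lower share is 0.622% far and 0.696% close.

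Levels and shares past 2-fold were highest among the shortest loci. Members under 200 bases (2495 rows) had a median of 224 FPKM in the Cacnb4 library and 189 FPKM in the empty vector library, and 18.9% were higher and 8.46% lower. Over all measured rows of that length 16.7% were higher and 9.88% lower. Members of 500 to under 2000 bases (495 rows) had medians of 8.78 and 7.79 FPKM, with 4.24% higher and 0.606% lower, against 3.09% and 1.11% of all measured rows. The 72 members of 2000 bases or more had medians of 13.9 and 12.4 FPKM, and 4 of them (5.56%) were higher and none lower. Distance from the nearest named row made less difference. The higher share was 14.6% at 50 to 100 kb (1997 rows), 16.98% at 100 to 500 kb (2043 rows) and 14.7% beyond 500 kb (232 rows).

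The higher loci were unevenly spread over the chromosomes. Of members with 20 or more reads, 27 of 64 on chromosome 20 (42.2%), 57 of 190 on chromosome 10 (30.0%) and 36 of 213 on chromosome 5 (16.9%) were at least 2-fold higher. On each of these chromosomes most of the higher loci lay in 1 block, described below, so the shares do not describe the whole chromosome. The lowest share on a nuclear chromosome was 6 of 221 on chromosome 3 (2.71%). The 5 mitochondrial loci lie end to end along most of that chromosome and were nearly level. The longest of them, 7734 bases, stood at 1842 FPKM in the Cacnb4 library and 1746 FPKM in the empty vector library, and the other 4 had ratios from 0.819 to 1.03.

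Neighbouring loci tended to share a direction. Over pairs of adjacent members that both held 20 or more reads, Pearson's r between their log2 ratios was 0.62 at gaps under 1 kb (849 pairs), 0.52 at 1 to 10 kb (1153 pairs), 0.25 at 10 to 100 kb (392 pairs) and 0.04 beyond 100 kb (573 pairs). Without the largest block of higher loci, on chromosome 10, the same values were 0.45, 0.42, 0.26 and 0.04. The 2 values of a pair come from the same 2 libraries and often from neighbouring pieces of one stretch, so these correlations describe how the signal is laid out and carry no test.

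Rows within 100 kb of each other were therefore joined into 910 groups. Of these, 374 held a single row, 140 held 2 rows and 396 held 3 or more, up to 65. The 396 larger groups contain 3623 of the members and span a median of 43.6 kb, of which the rows cover a median of 5.21%. By summed FPKM 44 of the 396 groups (11.1%) were 2-fold or more higher with Cacnb4 and 6 (1.52%) were 2-fold or more lower, against 8.32% and 4.70% of 914 groups of close unnamed rows. When rows with fewer than 20 reads were left out, 18 of 341 groups were 2-fold or more higher. The same count was not made for the close groups, so far and close groups cannot be compared at that depth. By summed recovered reads, which do not let 1 short row dominate, 23 groups (5.81%) were at least 2-fold higher, against 2.30% of the close groups, and 1 was at least 2-fold lower. Both scales called 22 of the higher groups. The read sums still include rows with fewer than 20 reads. The group starting at chr14:72561075, with a log2 ratio of 2.07 by reads, holds no others. The 10 groups with most higher rows held 195 of the 672, or 29.0%. That count includes rows with fewer than 20 reads and depends on group size.

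**Figure D3:**
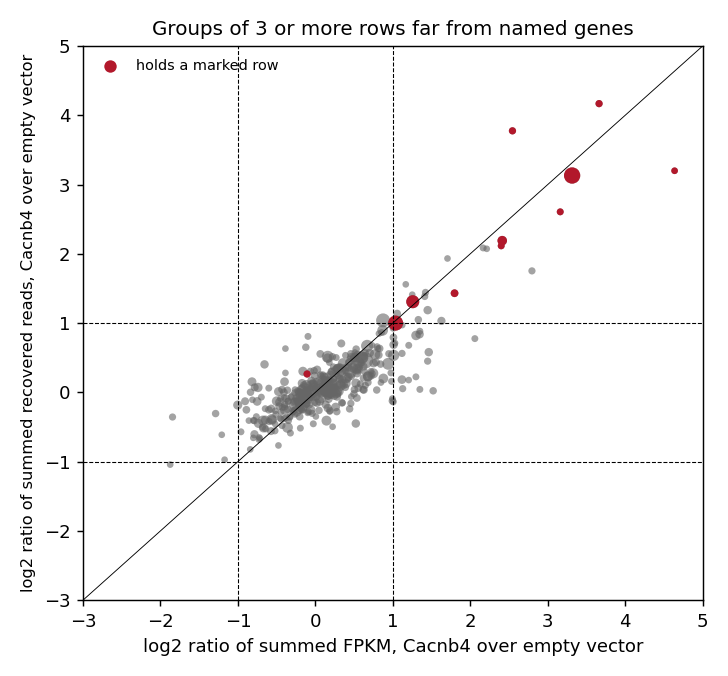
Each point is 1 of the 396 groups of 3 or more rows, with the log2 ratio (Cacnb4 over empty vector) of its summed FPKM on the horizontal axis and of its summed recovered reads on the vertical axis. Point area grows with the number of rows, red marks groups holding a row marked in the authors' deposited table, and dashed lines are at 2-fold. The groups fill the upper right corner more than the lower left, where 1 group is past 2-fold on both scales.

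The authors' deposited table marks 59 of the members as significant (q below 0.05), 58 of them higher in the Cacnb4 library and 1 lower. The 59 are 1.38% of the members, against 0.933% marked of all 24426 measured rows. Over all rows the authors' deposited table marks 0.674% as higher and 0.0214% as lower. Those tests compare the reads of these 2 libraries and not the conditions. The 59 rows fall into 14 groups, and 1 group on chromosome 10 holds 30 of them in the authors' deposited table. Without that group 29 of the other 4218 members are marked, so the larger share among the members rests on that 1 block. The 14 groups are described next, in the order of the genes that lie around them. They were picked by marks made on the same reads, so their ratios and intervals are no separate check of those marks. Gene names between the flanking genes come from the RefSeq annotation of assembly GRCr8, a newer build than the rn4 coordinates of the table. They say which genes a newer map places in the same interval, and no locus was assigned to any of them.

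**Figure D4:**
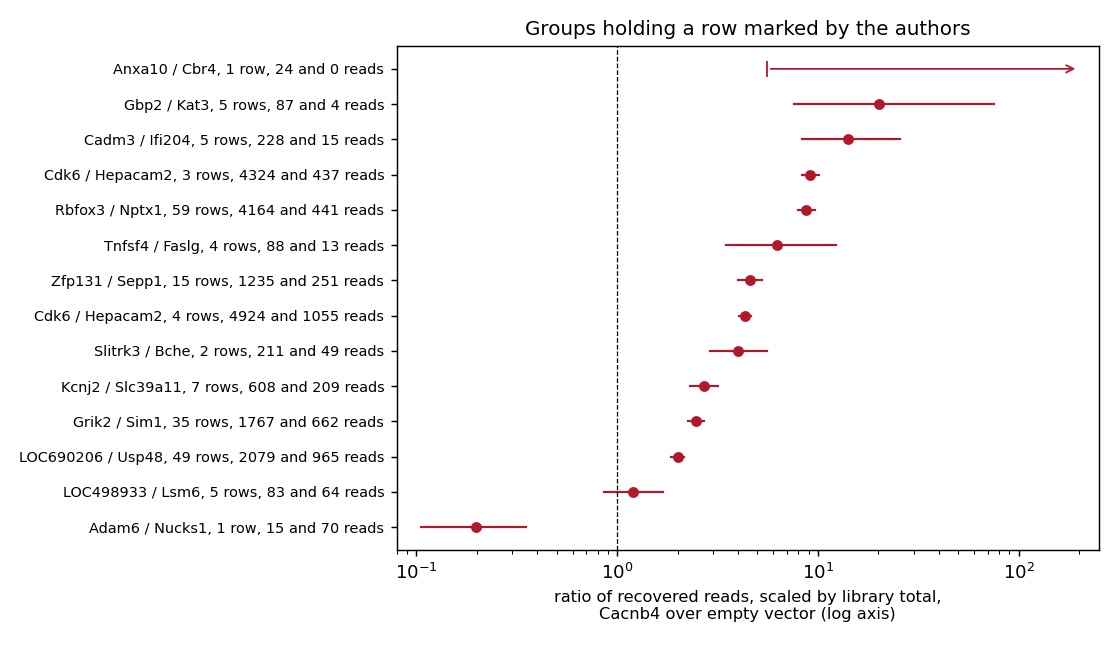
Ratio of recovered reads, scaled by library total, Cacnb4 over empty vector on a log axis, for the 14 groups that hold a row marked in the authors' deposited table. Labels give the named genes on either side, the rows, and the reads in the Cacnb4 library and in the empty vector library. Lines are exact 95% intervals, and the arrow marks a group with no read in the empty vector library. Of the 14 groups, 12 lie to the right of 1 with their whole interval, the group beside Lsm6 spans 1, and the group beside Nucks1 lies to the left. The groups were picked by marks made on these same reads. Intervals clear of 1 were therefore largely set by that choice and are no separate check. Some sums, such as that of the group beside Gbp2, include rows that entered the table only through the Cacnb4 library.

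The promoters of 3 genes from these intervals are printed first, because their starts carry the letters of the interferon-stimulated response element, a short motif found in many promoters of interferon-induced genes. The letters searched were GAAA, any 2 bases and GAAA again, or on the other strand TTTC, any 2 bases and TTTC, in windows from 250 bases before to 50 bases after each gene's start, with overlapping matches counted. Of 33469 RefSeq promoters 3.92% held a match, and of 21851 promoters of protein-coding genes 3.70% did. GRCr8 places 31 coding genes in the intervals around groups with marked rows, 24 of which have a promoter sequence, and 5 of those 24 held a match, Samd9, Ddx60 and Ifi214 among them. The rest were LOC134478918, in the Ddx60 interval with a promoter nearly the same in sequence, and LOC102556096, in the Ifi214 interval. The matching promoters are thus not independent of each other, and their share was not tested. A match is a description of the letters and shows no binding. Capitals mark the matches, sequences are from RefSeq (GRCr8, minus strand, 5′ to 3′), and the windows are chr4:32138909-32139208 for Samd9, chr16:33208790-33209089 for Ddx60 and chr13:88483286-88483585 for Ifi214.
Samd9: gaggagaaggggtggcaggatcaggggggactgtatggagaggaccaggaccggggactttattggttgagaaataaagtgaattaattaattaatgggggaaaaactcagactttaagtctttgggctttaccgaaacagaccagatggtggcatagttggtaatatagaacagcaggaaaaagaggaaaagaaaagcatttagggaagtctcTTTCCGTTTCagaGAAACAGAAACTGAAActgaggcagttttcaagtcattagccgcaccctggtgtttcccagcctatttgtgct
Ddx60: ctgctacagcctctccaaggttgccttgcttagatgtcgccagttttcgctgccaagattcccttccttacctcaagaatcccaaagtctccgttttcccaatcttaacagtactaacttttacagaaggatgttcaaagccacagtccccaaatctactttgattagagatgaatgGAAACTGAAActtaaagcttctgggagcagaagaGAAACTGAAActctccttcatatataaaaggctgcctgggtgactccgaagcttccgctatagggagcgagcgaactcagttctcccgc
Ifi214: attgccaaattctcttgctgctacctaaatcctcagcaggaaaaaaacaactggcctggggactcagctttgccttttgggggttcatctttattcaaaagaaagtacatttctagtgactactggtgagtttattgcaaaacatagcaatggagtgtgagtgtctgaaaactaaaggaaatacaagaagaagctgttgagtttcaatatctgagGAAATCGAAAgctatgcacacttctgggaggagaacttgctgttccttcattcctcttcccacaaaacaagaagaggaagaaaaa

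The largest block was the group at chr10:108741160-108862926, 59 rows between Rbfox3, which encodes a neuronal splicing regulator, and Nptx1, a neuronal pentraxin. The first row lay 40.0 kb apart from the rest and had 3.36 FPKM in the Cacnb4 library and 4.45 FPKM in the empty vector library, from 13 and 16 reads. The other 58 rows filled 81.25 kb, and covered 20.9% of it. Their median level was 133 FPKM in the Cacnb4 library (range 5.81 to 2311) and 13.1 FPKM in the empty vector library (range 0 to 203), and 9 of the rows had no read at all in the empty vector library. In that library 30 of the rows, these 9 included, had 3 or fewer reads. Together they held 4151 reads in the Cacnb4 library and 425 in the empty vector library, a ratio of 9.07 (8.20 to 10.04). In the whole group 12 rows held fewer than 20 reads. Of the other 47 rows 46 were 2-fold or more higher, and together the 47 held 3986 reads in the Cacnb4 library and 432 in the empty vector library, a ratio of 8.57 (7.76 to 9.48).

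The longest row of that block, 3594 bases at chr10:108814965-108818559, had 15.0 FPKM in the Cacnb4 library and 1.70 FPKM in the empty vector library, from 647 and 68 reads, a ratio of 8.82 (6.87 to 11.5). The last row, 1832 bases at chr10:108861094-108862926, had 45.1 FPKM in the Cacnb4 library and 5.30 FPKM in the empty vector library, from 936 and 102 reads, a ratio of 8.51 (6.94 to 10.6). The highest level was that of a 105-base row at chr10:108854523-108854628 with 2311 FPKM in the Cacnb4 library and 93.0 FPKM in the empty vector library, from 107 and 4 reads. Rbfox3 and Nptx1 on either side were under 0.1 FPKM in both libraries. Between them GRCr8 lists 13 coding genes, among them Eif4a3 (an RNA helicase of the exon junction complex), Card14 (a scaffold for NF-kappa B signalling), Sgsh and Gaa (lysosomal enzymes), Rnf213 (a giant ubiquitin ligase with an ATPase core, interferon-inducible in human cells) and Endov (a nuclease acting on inosine). Of the 13 genes 5 have a named row elsewhere in the table, on its unplaced chromosome, and Rnf213 has no named row.

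**Figure D5:**
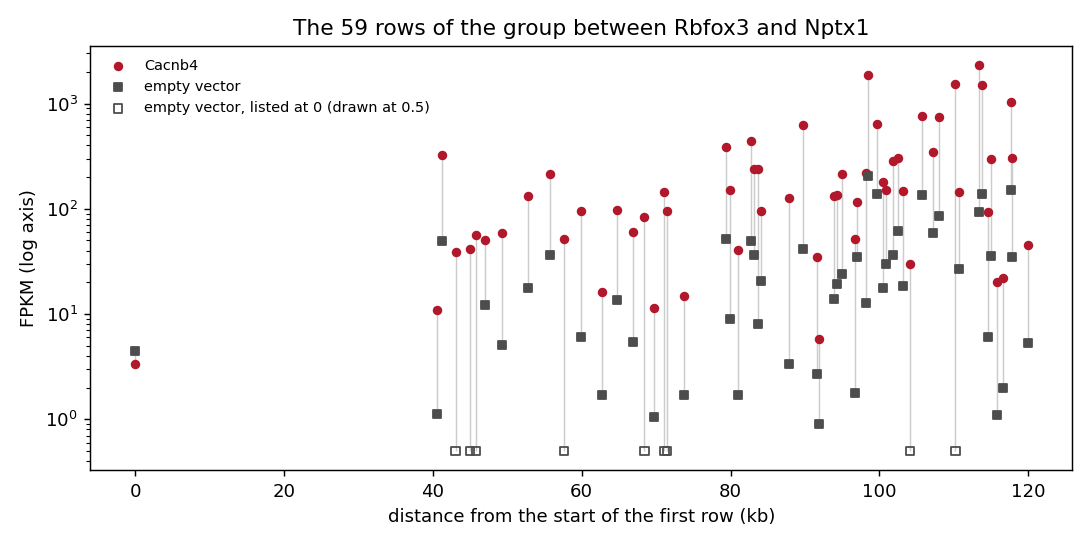
FPKM of each of the 59 rows of the chromosome 10 group on a log axis, in the Cacnb4 library (red circles) and the empty vector library (grey squares), against distance from the start of the first row in kb. Open squares are the 9 rows listed at 0 in the empty vector library, drawn at 0.5. From 40.5 kb onward every red circle lies above its square.

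The deepest reads among the marked loci lay on chromosome 4 between Cdk6, a cell-cycle kinase, and Hepacam2. GRCr8 lists Samd9, Samd9l2, Samd9l1 and 1 gene without a descriptive name there. In human and mouse, Samd9 and Samd9l proteins restrict viruses and slow cell growth. The first group, 3 rows at chr4:27975950-27996061, held 4324 reads in the Cacnb4 library and 437 in the empty vector library, a ratio of 9.19 (8.32 to 10.2). Most of these came from a 4995-base row with 69.5 FPKM in the Cacnb4 library and 7.65 FPKM in the empty vector library. A 76-base row of the group had 3355 FPKM in the Cacnb4 library and 129 FPKM in the empty vector library from 56 and 2 reads, a ratio of 26.0 (6.87 to 220).

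The second group, 4 rows at chr4:28158868-28192542, held 4924 reads in the Cacnb4 library and 1055 in the empty vector library, a ratio of 4.33 (4.05 to 4.64). Its 5030-base row stood at 77.1 FPKM in the Cacnb4 library and 17.9 FPKM in the empty vector library. Its other 3 rows had ratios from 4.56 to 7.43. The long rows of the 2 groups were thus close in level in the Cacnb4 library and further apart in the empty vector library, and the ratio intervals of the 2 groups do not overlap. Cdk6 on one side had 16.3 FPKM in the Cacnb4 library and 12.2 FPKM in the empty vector library, and Hepacam2 was under 1 FPKM in both.

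On chromosome 2 a group of 5 rows at chr2:240715432-240739751 lay between Gbp2, a guanylate-binding protein, and Kat3, an aminotransferase gene. GRCr8 places Gbp1, Gbp3 and 1 gene without a descriptive name in between, members of the interferon-induced GTPase family that attacks the vacuoles of intracellular microbes. The rows summed to 87 reads in the Cacnb4 library and 4 in the empty vector library, but 4 of the 5 held fewer than 20 reads and entered the table only through the Cacnb4 library, so their ratios are not read as differences. The remaining row, 253 bases, held 24 reads in the Cacnb4 library (29.4 FPKM) and none in the empty vector library. With the empty vector library set at 3 reads the ratio would be 7.43. The exact 95% lower limit, from the reads as found, was 5.59. Gbp2 itself, 174 kb away (174354 bases), had 103 FPKM in the Cacnb4 library and 19.6 FPKM in the empty vector library. It was the only gene of a 36-gene interferon-stimulated list, 32 of which are in the table, to be the first named gene on either side of any of the 910 groups, although Kat3, on the other side, lay closer (103184 bases).

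On chromosome 13 a group of 5 rows at chr13:89645773-89659202 lay between Cadm3, a neuronal adhesion molecule, and Ifi204, a gene of the PYHIN family of DNA-binding interferon-inducible proteins. GRCr8 lists Aim2, the cytosolic DNA sensor that starts an inflammasome, Ifi214 of the same family and 1 gene without a descriptive name in between. The rows held 228 reads in the Cacnb4 library and 15 in the empty vector library, a ratio of 14.1 (8.38 to 25.6). The row with most reads, 426 bases at chr13:89650091-89650517, stood at 34.2 FPKM in the Cacnb4 library and 0.752 FPKM in the empty vector library from 98 and 2 reads, a ratio of 45.5 with a wide interval (12.3 to 381). A 285-base row held 30 reads in the Cacnb4 library and none in the empty vector library. With the empty vector library set at 3 reads its ratio would be 9.28. The exact 95% lower limit, from the reads as found, was 7.10. Ifi204 itself was under 1 FPKM in both libraries.

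A further group on chromosome 13, 4 rows at chr13:77134738-77147253, lay between Tnfsf4 and Faslg, both ligands of the tumour necrosis factor family. GRCr8 lists another ligand of that family, Tnfsf18, in between. The rows held 88 reads in the Cacnb4 library and 13 in the empty vector library, a ratio of 6.28 (3.49 to 12.3). Of these rows 2 held fewer than 20 reads, and the other 2 gave 65 and 11 reads, a ratio of 5.49 (2.87 to 11.5). None of the rows reached 10 reads in the empty vector library. Tnfsf4 and Faslg were under 1 FPKM in both libraries. A single 468-base locus on chromosome 16, at chr16:31080619-31081087, lay between Anxa10 and Cbr4. It held 24 reads in the Cacnb4 library (7.06 FPKM) and was listed at 0 in the empty vector library. With the empty vector library set at 3 reads its ratio would be 7.43. The exact 95% lower limit, from the reads as found, was 5.59. GRCr8 places 4 coding genes in that interval, among them Ddx60, a helicase of the antiviral response whose promoter is printed above.

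A group of 15 rows at chr2:51934932-52233221, between the zinc finger gene Zfp131 and Sepp1, the plasma selenium carrier, held 1235 reads in the Cacnb4 library and 251 in the empty vector library, a ratio of 4.57 (3.99 to 5.25). Of its 13 rows with 20 or more reads 11 were 2-fold higher and 1 was 2-fold lower, and its best covered row, 401 bases, stood at 134 FPKM in the Cacnb4 library and 22.9 FPKM in the empty vector library. A pair of rows at chr2:164162541-164165041, beside the cholinesterase gene Bche, held 211 reads in the Cacnb4 library and 49 in the empty vector library, a ratio of 3.998 (2.92 to 5.57).

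A group of 7 rows at chr10:102387468-102394254 lay between Kcnj2, a potassium channel gene, and Slc39a11, a zinc transporter gene, in an interval where GRCr8 lists Sox9, the transcription factor of cartilage and of many progenitor cells. It held 608 reads in the Cacnb4 library and 209 in the empty vector library, a ratio of 2.70 (2.30 to 3.18). Its longest row, 1771 bases, stood at 14.3 FPKM in the Cacnb4 library and 5.23 FPKM in the empty vector library.

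The next 2 groups were long runs of short rows with smaller ratios. The 35 rows at chr20:54614302-54852378, between the glutamate receptor gene Grik2 and Sim1, held 1767 reads in the Cacnb4 library and 662 in the empty vector library, a ratio of 2.48 (2.27 to 2.71). Of its 32 rows with 20 or more reads all were above 0 on the log2 scale, from 0.58 to 2.01, and 25 were past 2-fold. GRCr8 lists 1 coding gene there, Ascc3, a helicase of the activating signal cointegrator complex. The 49 rows at chr5:156265782-156300500, before the deubiquitinase gene Usp48, held 2079 reads in the Cacnb4 library and 965 in the empty vector library, a ratio of 2.0 (1.85 to 2.16), and of its 47 rows with 20 or more reads 24 were past 2-fold and 46 above 0.

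The 1 row marked as lower in the authors' deposited table was a 70-base locus at chr6:140857775-140857845, 2046216 bases from the nearest named row. It stood at 1158 FPKM in the Cacnb4 library and 5820 FPKM in the empty vector library, from 15 and 70 reads, a ratio of 0.199 (0.106 to 0.351). In the last of the 14 groups, 5 rows on chromosome 19 at chr19:30634396-30691299, 1 row was higher, with 31 reads in the Cacnb4 library and 4 in the empty vector library, and the other 4 ranged from 0.279 to 0.983 in ratio. Their sum was 83 reads in the Cacnb4 library and 64 in the empty vector library.

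Several groups without a marked row were also higher by their reads. The 41 rows at chr6:36889310-37160159, between Ddx1 and Fam84a where GRCr8 lists Nbas (a factor of transport from the Golgi to the endoplasmic reticulum), held 8521 reads in the Cacnb4 library and 3848 in the empty vector library, a ratio of 2.06 (1.98 to 2.14). By summed FPKM the same group was short of 2-fold, at 0.87 on the log2 scale. The 10 rows at chr18:41544097-41666074, beside Commd10, held 496 reads in the Cacnb4 library and 202 in the empty vector library, a ratio of 2.28 (1.93 to 2.70). The 7 rows at chr8:62020341-62031693, between Stra6 and Loxl1 where GRCr8 lists Pml, the scaffold of interferon-induced nuclear bodies, along with Islr, Islr2 and Stoml1, held 996 reads in the Cacnb4 library and 420 in the empty vector library, a ratio of 2.20 (1.96 to 2.47). The 9 rows at chr19:21560494-21610838, where GRCr8 lists N4bp1, held 997 reads in the Cacnb4 library and 452 in the empty vector library, a ratio of 2.05 (1.83 to 2.29).

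Smaller groups gave larger but looser ratios. The 4 rows at chr6:138442413-138444287, between Crip1 and Adam6, held 116 reads in the Cacnb4 library and 25 in the empty vector library, a ratio of 4.31 (2.78 to 6.93). The 5 rows at chr6:138284449-138310902 in the same interval held 241 reads in the Cacnb4 library and 82 in the empty vector library, a ratio of 2.73 (2.11 to 3.55). The 5 rows at chr1:221783079-221785801, where GRCr8 lists the proprotein convertase gene Pcsk5, held 103 reads in the Cacnb4 library and 28 in the empty vector library, a ratio of 3.42 (2.23 to 5.39). Without rows of fewer than 20 reads the first of these groups had a ratio of 3.83 (2.45 to 6.18) and the last 3.06 (1.91 to 5.05).

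Lower groups were few. The 6 groups of 3 or more rows that were 2-fold lower by summed FPKM had ratios of recovered reads from 0.481 to 0.881. The only one 2-fold lower by reads as well was a set of 3 rows at chr7:14270551-14272820 beside the zinc finger gene Zfp955a, with 28 reads in the Cacnb4 library and 54 in the empty vector library, a ratio of 0.481 (0.294 to 0.774). In the set of 5 rows at chr17:31917153-31937441, the sums were 58 reads in the Cacnb4 library and 69 in the empty vector library. There 3 rows held fewer than 20 reads, and the other 2 rows gave 48 and 37 reads, a ratio of 1.204 (0.768 to 1.90).

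Not every large group was past 2-fold. The largest, 65 rows at chr9:32904561-33051150 in an interval where GRCr8 lists the cytoskeletal linker gene Dst, held 3816 reads in the Cacnb4 library and 3259 in the empty vector library, a ratio of 1.09 (1.04 to 1.14). The 64 rows at chr8:84641357-84757062 held 9143 reads in the Cacnb4 library and 6164 in the empty vector library, a ratio of 1.38 (1.33 to 1.42), and of its 61 rows with 20 or more reads 6 were past 2-fold.

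The named genes on either side of a group were rarely past 2-fold once 1 FPKM was added to both values. That scale holds a gene under 1 FPKM in both libraries within 2-fold whatever its ratio. Both flanks were that low in 8 of the 44 higher groups and in 59 of all 396, so there their difference could not be read. For the 44 groups higher by summed FPKM, the nearest named row on the left was within 2-fold in 40 and that on the right in 44. In 4 of the 44 (9.09%) a flanking row was itself 2-fold higher, as it was in 14 of all 396 groups (3.54%). Where the flanks could be placed in GRCr8 with an interval of like length, 35 of 36 higher groups had a coding gene in between, as had 312 of all 347 groups so placed.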

How the data were processed

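The deposited table gives 1 value per transcript and library, and its header names no unit. From their layout the authors' values were read as FPKM. The deposited read counts are counts per library, with the adaptor removed and reads under 10 bases left out, per the file headers. P-values and q-values per transcript are the authors', per the file headers. Per the submitters' processing notes the alignment tool was TopHat 1.4.1 and the build rn4. For the program that estimated levels, the name is not given in the sources. The table does not say whether starts count from 0 or 1.

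Distances, groups, ratios (pseudocount 1 FPKM) and recovered reads were computed with Python 3.11.15, numpy 2.4.6, pandas 2.3.3 and scipy 1.17.1, with figures in matplotlib 3.10.9. Reads were taken as FPKM times effective length (shortest fragment 12 bases) times a fitted total of 12853153 reads (Cacnb4) or 11933161 reads (empty vector), an estimate made after the data were seen and tested on simulated data. No count test was run, since each group has 1 library. Of the named symbols 16315 of 16795 matched GRCr8. The rule for named regions took every group of 3 or more rows, all marked rows and the extremes of level, ratio and length; the text keeps the groups with marked rows, examples of other groups 2-fold higher or lower, the largest and some of the extreme rows, a choice made after their values were seen. Members and lists were chosen with earlier results of these data known.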

Additional observations from a re-analysis of the deposited data

How the results depend on the processing

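The lean of distant loci toward the Cacnb4 library kept its direction in the shares and the median under every alternative run. Against 15.7% higher, 6.80% lower, a median log2 ratio of 0.15, 44 of 396 groups higher and 59 rows marked in the authors' deposited table, a pseudocount of 5 FPKM gave 13.5%, 5.52% and 0.12. A distance of more than 20000 bases gave 14.5% higher, a median of 0.12 and 69 of 667 groups higher, and more than 100000 bases gave a median of 0.17, 28 of 210 groups higher and 25 marked rows. Rescaling the Cacnb4 library by the median of named rows (-0.03 on the log2 scale) gave a median of 0.18. Loci of 200 bases or longer gave 11.2% higher, 4.49% lower, 0.13, 17 of 246 groups and 38 marked rows, and a q below 0.01 in the authors' deposited table left 35. The remaining alternatives were chosen after seeing the data. Without the chromosome 10 group 14.6% were higher and 29 rows marked. Recovered reads gave 23 higher groups. Rows with 20 or more reads gave 9.98% higher, 3.37% lower, 0.11 and 18 of 341 groups, and rows with 50 or more gave 6.71%, 0.593% and 0.12. Of 213 alternatives for 31 single groups, 186 kept their side of 2-fold, 17 came under it, 2 passed it and 8 reversed: the groups starting at 31917153 on chromosome 17 (0.52, 200 bases or longer), 30634396 on chromosome 19 (0.0191 weighted by length, 0.27 by reads), 57822989 on chromosome 2 (0.0674 and 0.0350, 200 bases or longer and reads), 71888402 on chromosome 6 (-0.0628 and -0.0620, likewise) and 32904561 on chromosome 9 (-0.0546, its highest row), all log2 ratios. The cause was not tested. No paired analysis was possible because each group has 1 library, and for the same reason no replicate could be left out. Few reads per locus limit single rows most.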
